A study of Mus musculus with 15 samples.

Results

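Loss of Apc was examined in blood stem and progenitor cells by comparing the 3 arrays of genotype 15lox/15lox with 3 of the 6 arrays of wild-type cells, numbers 4 to 6, which makes 6 of the 15 arrays of the series. The groups follow the genotype labels. Among the wild-type arrays, numbers 1 to 3 were set aside because of their values: they look shifted onto the mean of arrays 4 to 6, which their own mean matched within 0.05 (log2) at 96.75% of the probe sets. The cells were LSK cells (lineage-negative, Sca-1-positive, Kit-positive cells, the bone marrow fraction that holds the stem cells) of C57BL6 mice. They were infected outside the body with MSCV-Cre-IRES-GFP, a retrovirus that carries the Cre recombinase and a green marker, and the GFP-positive cells were sorted for RNA.

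The wild-type cells carried 2 normal Apc alleles (wt/wt) and received the same Cre virus as the 15lox/15lox cells, in which both alleles are floxed. Both were grown in Stemspan medium with mFlt3L, mTpo and mSCF. The other genotypes of the series, 15lox/1638N and 15lox/1572T, pair the floxed allele with a hypomorphic one (3 arrays each); they lent their spread to the test and are compared with 15lox/15lox near the end. RNA came from more than 10000 cells a sample and was amplified before labelling, so each value is an average over sorted cells, in which fewer cells of a type and less RNA per cell cannot be told apart. The labels give no age and do not say whether replicates came from separate animals; p-values then measure the spread between these samples, which may be technical. The stated purpose of the series is to follow what Wnt signals do in haematopoietic cells.

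Apc holds together a protein complex that tags beta-catenin to be broken down. When Wnt ligands silence this complex, or when Apc is lost, beta-catenin accumulates, enters the nucleus and joins the Lef/Tcf factors on DNA. Among the genes they switch on in many tissues are inhibitors of the pathway itself, such as Axin2, Nkd1 and the Dkk proteins, which form a negative feedback.

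Values are log2 probe set summaries, so a difference of 1 is a 2-fold change. For each of 18194 genes the probe set with the highest mean was tested with limma, and a gene was called higher or lower when its Benjamini-Hochberg adjusted p was under 0.05. The targeted gene came first. On the Apc probe set 1420956_at the 15lox/15lox arrays read 5.58, 6.10 and 5.69 and the wild-type arrays 9.72, 9.61 and 9.93, a 15.6-fold lower level (log2 difference -3.96, SE 0.15, limma adjusted p = 8.88e-07 over all probe sets). Apc signal was thus low in each of the 3 mutant arrays. Probe set 1420957_at fell 14.8-fold and 1450056_at 2.69-fold. The fourth, 1435543_at, was 1.71-fold higher (adjusted p = 0.0133); it has the highest mean and therefore stands for Apc in the counts by gene, where its call ended with sex type as a covariate (adjusted p = 0.0581) and the sign turned with the mean of the probe sets (-2.12). Where these probe sets lie relative to the floxed stretch is not given in the sources used here.

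The 6 arrays had medians of 6.734 to 6.795. They differed in sex type: the mean of 3 Y-linked genes was 8.88 to 9.19 in the wild-type arrays and 15lox/15lox array 1, and 4.21 to 4.53 in 15lox/15lox arrays 2 and 3. Genotype and sex type thus partly overlap, and calls of named genes that ended with sex type as a covariate are given beside them. In a principal component view of the 12 arrays, 15lox/15lox array 3 lay at -41.9 on the second component (21.9% of the variance), against -15.1 and -9.96 for the other two. Kit, the receptor for stem cell factor by which the cells were defined, was high in all 6 arrays at 10.95 to 11.54; Ly6a (Sca-1) had no probe set with a single symbol. Other genes of blood progenitors were high too, Cd34 at 13.30 to 13.61, Flt3 at 12.11 to 12.84 and Ptprc (CD45) at 12.09 to 12.79. Markers of stromal cells averaged 5.40 to 5.70 on all 6 arrays.

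In 15lox/15lox more genes were called higher than lower, a balance that varied between fits. Of the 18194 genes, 464 were called (2.55%), 327 higher (1.8%) and 137 lower (0.753%), while 2206 had an unadjusted p under 0.05. The higher genes moved further: their median difference was 1.29, against 0.84 in size for the lower genes and 0.11 in size for all genes. Over 2-fold, 211 genes were higher and 50 lower; over 8-fold, the counts were 43 and 2. In each of the 464 genes the 2 sets of 3 values did not overlap, which was so for 18.3% of all genes. Of 270 called genes with over 1 probe set, 104 had over 1 called the same way over all probe sets, and 166 did not. The count was 291 without wild-type array 4 and also 291 without wild-type array 5, and 260 with sex type as a covariate (215 higher and 45 lower). With all 6 wild-type arrays as control the counts were 534 higher and 665 lower, but arrays 1 to 3 look shifted onto the mean of 4 to 6. The 6 are thus not independent controls, and those counts are no fair measure of the balance. With wild-type arrays 1 to 3 alone as control the balance was 309 higher and 125 lower, and with array weights 447 and 377. In each of the 6 fits with 1 array left out and in the fit with sex type, 202 higher and 31 lower genes were called.

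**Figure D1:**
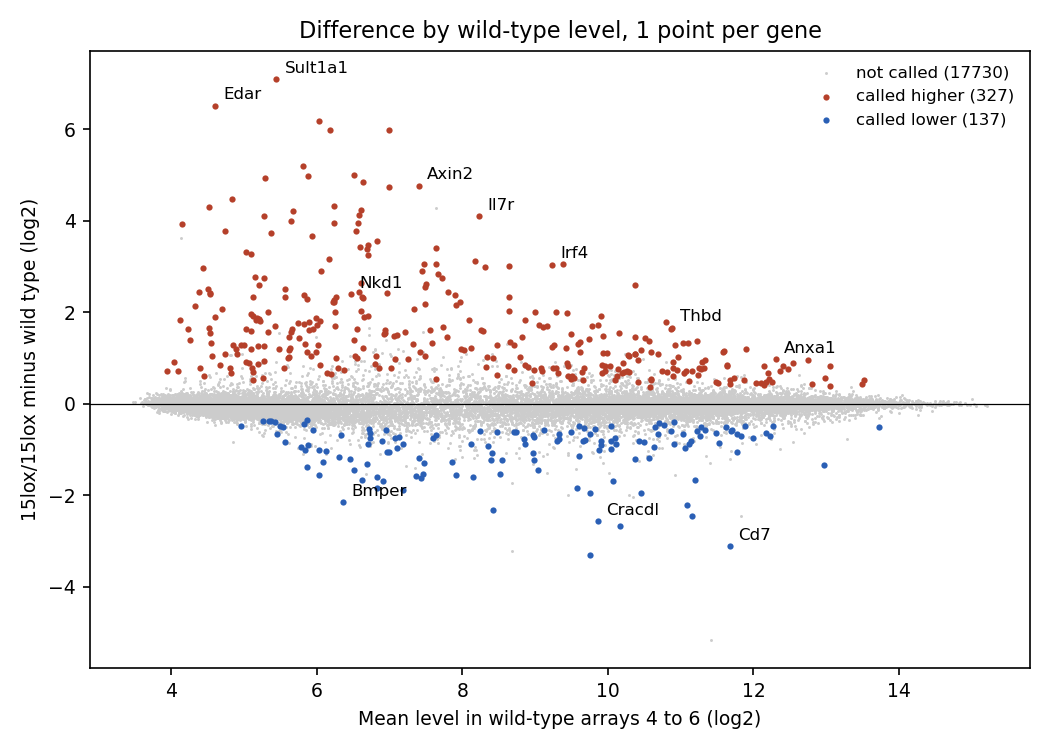
Each point is 1 of 18194 genes: its mean log2 level in wild-type arrays 4 to 6 (x axis) and the log2 difference of 15lox/15lox minus wild type (y axis), with called genes in colour. The 327 higher genes reach above 7 and include many of low wild-type level, while the 137 lower genes mostly lie between 0 and -2.

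The share called depended on the wild-type level. With genes split by wild-type level into 5 equal bands, 0.962% were called in the lowest band, 4.31% in the middle band and 1.29% in the highest. The median difference of the higher genes was 1.47 in the lowest band, 1.82 in the second and 0.57 in the highest; that of the lower genes was 0.49 in size in the lowest band, 0.90 in the second and 0.65 in the highest. Y-linked genes on arrays without Y-linked signal read 3.67 to 5.61, a range for genes that are not expressed. The wild-type mean of 70 of the 327 higher genes was below 5.61, as was the 15lox/15lox mean of 30 of the 137 lower genes. Edar, Fasl, Bmp4 and Tnfrsf19 were among the former, Bmper and Cd3g among the latter. For such genes the level of the lower group is not resolved, and the folds and differences printed, those of Dkk1 and Notum too, are of the summarised values. With the lower group set at 5.61, as a bound chosen after seeing the data, Sult1a1 was at least 122-fold higher in 15lox/15lox, Edar 45.6-fold, Ntrk3 24.5-fold, Tfcp2l1 13.7-fold, Bmp4 12.9-fold, Fasl 5.56-fold and Fetub 3.46-fold. The same bound was 2.73-fold for Plpp3, 2.55-fold for Dkk2, 2.50-fold for Tnfrsf19, 2.12-fold for Tbx4, 1.85-fold for Wif1, 1.82-fold for Pou2af1, 1.48-fold for Elfn1 and 1.03-fold for Cpb1. Among lower genes it was 2.98-fold for Crispld2, 2.47-fold for Il2rb, 2.33-fold for Blk, 2.32-fold for Ebf1, 2.02-fold for Gpr34, 1.81-fold for Pacsin1 and 1.69-fold for Bmper. It was 1.39-fold for Cd3g, 1.34-fold for Myog, 1.20-fold for Tnfrsf25 and 1.19-fold for Xcl1. For Orm3 and Hey2 both group means were below 5.61. Of the called genes 18 were of that kind, and no fold is given for them.

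The 10 largest increases were in genes of varied function. Sult1a1, a sulfotransferase that conjugates phenols, read 12.10, 12.51 and 13.02 in 15lox/15lox and 5.81, 5.69 and 4.83 in wild type, a 137-fold difference as summarised (log2 7.10, SE 0.40, limma adjusted p = 4.52e-06). Edar, the receptor of ectodysplasin known from skin appendages, read 11.28, 10.86 and 11.22 against 4.85, 4.40 and 4.58 (91.3-fold as summarised). Both had a wild-type mean below 5.61, so these folds depend on an unresolved level. The 2 genes went from the low end of the scale to its upper part in every mutant array. The others were Ahsg, the liver plasma protein fetuin-A (72.7-fold), Rasgrp1, a Ras activator of lymphocytes (63.1-fold), Plpp1, a lipid phosphate phosphatase (63.0-fold), Phlda1 (36.8-fold), Efhd1 (31.8-fold), Cd83 (31.5-fold), Ntrk3, the receptor of neurotrophin-3 (30.5-fold), and Zcchc14 (28.8-fold). Each of these 10 stayed called in every alternative run.

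Below these extremes lay most of the response. Of the 327 higher genes, 124 differed by a log2 value of 1 to 2 and 116 by less than 1. In the range from 1 to 2, the gene of lowest p was Thbd, thrombomodulin, an endothelial and myeloid surface protein that restrains clotting. It read 12.56, 12.37 and 12.70 in 15lox/15lox and 10.87, 10.85 and 10.91 in wild type (3.17-fold, limma adjusted p = 1.7e-05). The mutant arrays were all above the wild-type arrays by more than the spread within either group. Rai14, an actin-associated ankyrin protein, was 3.47-fold higher and Ada, adenosine deaminase, 2.72-fold. Rnf144b, a ubiquitin ligase, was 2.86-fold higher, and Antxr1, a receptor that binds collagen and anthrax toxin, 3.42-fold. Sipa1l2, a relative of the Rap GTPase-activating proteins, rose 3.55-fold, and Tmem163, a zinc transporter of vesicles, 3.77-fold. Of the 10, 2 stayed low in absolute terms: Cpb1, carboxypeptidase B, at 5.53 to 5.73 against 4.24 to 4.27 and Elfn1 at 5.98 to 6.54 against 4.44 to 4.57. Rnf214 (2.18-fold) lost its call with the mean of its probe sets (adjusted p = 0.223).

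Changes under 2-fold were also resolved in genes of high level. Anxa1, the membrane-binding and anti-inflammatory annexin A1, read 13.43, 13.23 and 13.20 in 15lox/15lox and 12.34, 12.26 and 12.32 in wild type (1.97-fold, SE 0.10 in log2, limma adjusted p = 0.000222); with the mean of its 2 probe sets the call ended (adjusted p = 0.309). Cdc23, a subunit of the anaphase-promoting complex, read 12.07, 12.18 and 12.02 against 11.28, 11.39 and 11.28 (1.71-fold, adjusted p = 0.000292). In both genes the arrays of each group lay within 0.3 of each other. B4galt5, a galactosyltransferase that makes lactosylceramide, was 1.93-fold higher, Bace1, the beta-secretase, 1.69-fold, Paqr8, a membrane progesterone receptor, 1.80-fold, and Gas2l3, a protein that links actin and microtubules, 1.60-fold. Nudt4, a Nudix hydrolase, rose 1.48-fold, Kif7, a kinesin of Hedgehog signalling, 1.97-fold, and Inafm2 1.71-fold. Cdk5r1, the p35 activator of Cdk5, was 1.98-fold higher, with its call lost for the mean of its probe sets (adjusted p = 0.0707).

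The lower genes were fewer and mostly changed less. Ccr9, a chemokine receptor of lymphoid and plasmacytoid cells that directs them to thymus and gut, read 7.74, 7.09 and 7.67 in 15lox/15lox and 10.23, 10.61 and 9.68 in wild type (6.39-fold lower, log2 -2.68, SE 0.37, limma adjusted p = 0.00162). Cracdl read 7.42, 7.04 and 7.46 against 9.86, 10.12 and 9.62 (5.90-fold lower). Both groups of arrays were well separated in each gene. Bmper, a secreted regulator of BMP ligands, was 4.42-fold lower and Lax1, an adaptor that dampens lymphocyte receptor signals, 3.89-fold. The other 6 of the 10 lowest lost their call without 1 array or more. Cd7, a surface protein of T and NK cells, was 8.58-fold lower and Igha, the IgA heavy chain, 9.83-fold lower; both calls ended without wild-type array 4 or 5 and without 15lox/15lox array 1 or 2 (adjusted p from 0.058 to 0.0859 for Cd7 and from 0.131 to 0.18 for Igha), and Igha was not called with sex type either (0.167). Ly6d, a surface protein of early B and plasmacytoid cells, was 5.45-fold lower, Sparc, a matrix protein, 4.97-fold, Sdc4, a syndecan, 4.63-fold, and H2-Eb1, an MHC class II chain, 3.86-fold. Sdc4 lost its call without wild-type array 6 (adjusted p = 0.0752), Ly6d without any 1 array but wild-type array 6, Sparc without any 1 but 15lox/15lox array 3, and H2-Eb1 without wild-type array 4 or 5 or 15lox/15lox array 1 or 2 (0.0815 to 0.201 for these 3). None of these last 4 was called with sex type as a covariate (0.0632 to 0.2).

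Among decreases of 1 to 2 on the log2 scale, Crispld2, a secreted protein, read 5.26, 5.17 and 5.47 in 15lox/15lox and 7.11, 7.62 and 6.82 in wild type (3.69-fold lower, limma adjusted p = 7.76e-05). Tbc1d8, a Rab GTPase-activating protein, was 3.14-fold lower, Rap1gap2, which turns off Rap1, 2.90-fold, and Gpr34, a receptor of lysophosphatidylserine, 3.18-fold. S100a5, a calcium-binding protein, and Adam22, a membrane protein with an inactive protease domain, were both 2.33-fold lower. Smaller still were Cyth4, an exchange factor for Arf GTPases (1.79-fold lower), Rasal3, a Ras GTPase-activating protein of haematopoietic cells (1.57-fold), Calhm2 (1.57-fold), Orm3, an orosomucoid (at 4.68 to 4.81 against 5.36 to 5.81), and Myog, myogenin (2.00-fold, at 4.84 to 5.25 against 5.86 to 6.29). These genes stayed called, at an adjusted p under 0.05, in every alternative fit that tested them. Not every gene was in every fit, since 1 fit left out genes under the median level. Other thresholds were not tried gene by gene. Sema4b, a semaphorin, was 1.42-fold lower, and its call ended for the mean of its probe sets (adjusted p = 0.22).

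Feedback inhibitors of Wnt signalling held more called genes than any other of the 53 lists. Of 19 measured, 9 were called higher and 0 lower by limma, 6 higher with sex type as a covariate (at an unadjusted p under 0.05, 10 were higher and 1 lower), with a median difference of 0.56 against -0.05 over all genes. The called members were 47.4% of the list, against 2.55% of all genes. All 53 lists were chosen with earlier results of these data known. A share above that of all genes, here and below, describes these arrays and tests nothing. Axin2, the inducible scaffold of the destruction complex, read 12.28, 12.29 and 11.94 in 15lox/15lox and 7.26, 7.38 and 7.57 in wild type (27.2-fold, log2 4.77, SE 0.31, adjusted p = 1.08e-05). Nkd1, which binds Dishevelled, read 8.90, 8.77 and 8.91 against 6.54, 6.39 and 6.48 (5.25-fold). The 2 groups were far apart in both genes. On the other Nkd1 probe sets the differences were 4.95, 3.54 and 0.85. Apcdd1, a membrane inhibitor of the ligands, was 8.28-fold higher. Dkk2, a secreted antagonist of the Lrp co-receptors, was 5.36-fold higher, at 6.70 to 7.30 against 4.40 to 4.68, and Wif1, which binds Wnt ligands, 3.70-fold, at 6.44 to 6.58 against 4.48 to 4.68. Znrf3, the ligase that removes Frizzled receptors, was 2.04-fold higher. Znrf3 lost its call without 15lox/15lox array 3 combined with sex type (adjusted p = 0.0542).

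Dkk1, Notum and Rnf43 completed the 9, and they were the least even. Dkk1, a relative of Dkk2, read 5.70, 6.64 and 5.29 in 15lox/15lox against 4.2, 4.37 and 4.13, a difference of 1.64 (SE 0.27). Notum, an enzyme that inactivates Wnt ligands, read 7.17, 7.79 and 6.41 against 5.39, 5.50 and 5.40 (1.69, SE 0.31). Rnf43, the partner of Znrf3, read 8.61, 7.83 and 9.18 against 6.55, 6.67 and 6.73 (1.89, SE 0.42). All mutant values were above the wild-type values, but array 3 was lowest for Dkk1 and Notum and highest for Rnf43. With sex type as a covariate none of the 3 was called (adjusted p = 0.0519 for Dkk1, 0.0837 for Notum and 0.169 for Rnf43). Notum also lost its call without wild-type array 4 (0.0553) and Rnf43 without any 1 array but 15lox/15lox array 2 (0.1 to 0.139). Kremen1 differed by 0.56 (adjusted p = 0.075), and Sfrp1, Sfrp2, Sfrp4, Dkk3, Sost and Lgr5 lay at 4.55 to 5.89 in all 6 arrays.

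**Figure D2:**
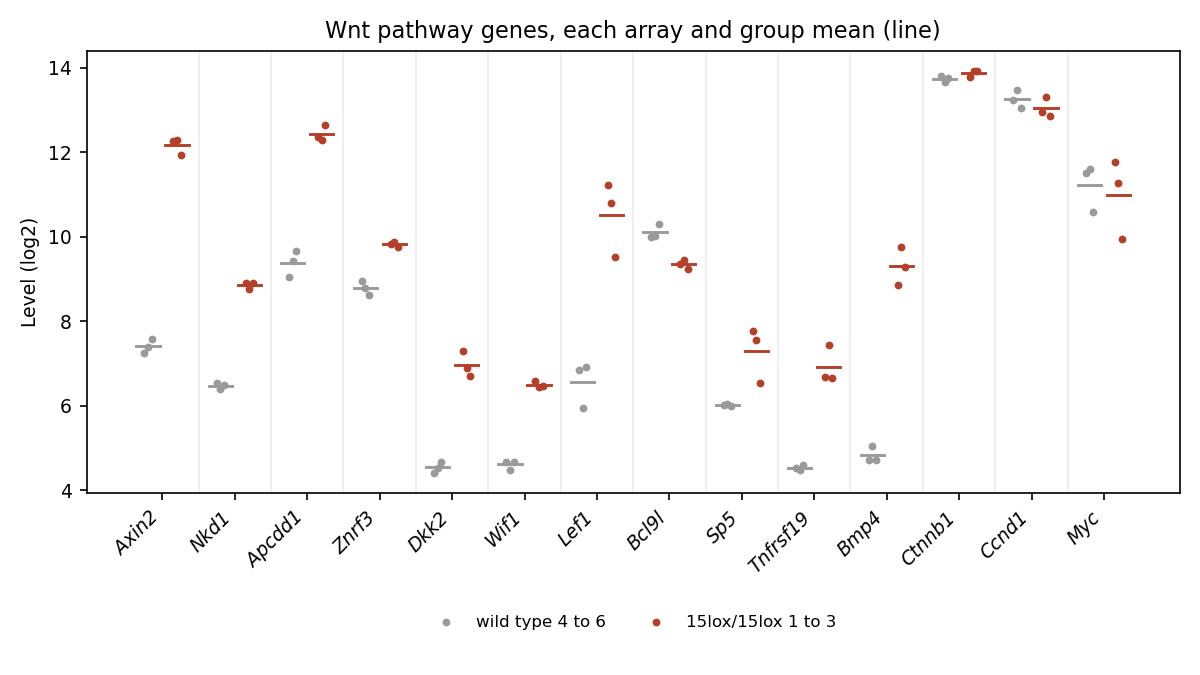
Log2 levels of 14 Wnt pathway genes on each wild-type array (4 to 6, grey) and each 15lox/15lox array (1 to 3, red); lines are group means of 3 arrays. Feedback genes such as Axin2 (12.28, 12.29 and 11.94 against 7.26 to 7.57) separate fully, while Ctnnb1, Ccnd1 and Myc overlap.

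Among the pathway's other components single genes were called. The share was 15.4% of the destruction complex, 4.76% of ligand and secretion genes and 12.5% of Lef/Tcf factors and cofactors, against 2.55% of all genes. In the destruction complex 2 of 13 genes were called, Axin2 and the one Apc probe set described above. Ctnnb1, which encodes beta-catenin, read 13.79, 13.93 and 13.92 against 13.80, 13.66 and 13.77, a difference of 0.14 (SE 0.10, limma adjusted p = 0.655). Beta-catenin is controlled at the protein level in this pathway, and protein was not measured. Of 18 receptors and co-receptors 0 were called by limma (5 at an unadjusted p under 0.05); the lowest p was that of Fzd3, a Frizzled receptor, which differed by 0.82 (adjusted p = 0.122). Of 21 ligand and secretion genes 1 was called, Wnt11, a ligand best known for signalling without beta-catenin, at 7.67, 7.42 and 7.55 against 6.71, 6.38 and 6.58 (1.99-fold). Wnt9a, another ligand, read 6.96, 7.16 and 8.28 against 9.42, 9.90 and 9.04 and was not called (difference -1.99, SE 0.50, adjusted p = 0.0682; its other probe set differed by -0.37). Among 16 Lef/Tcf factors and cofactors, Lef1 rose and Bcl9l fell. Lef1 read 11.22, 10.79 and 9.53 against 6.85, 5.96 and 6.91 (15.4-fold, adjusted p = 0.000216), lowest in array 3. Bcl9l, a coactivator that binds beta-catenin, was 1.68-fold lower, with the call lost for the mean of its probe sets (adjusted p = 0.0814). Tcf7 had no probe set with a single symbol and was not analysed here.

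Of 25 genes known as Wnt targets in other tissues, such as gut and embryo, 7 were called higher and 0 lower by limma (7 higher and 4 lower at an unadjusted p under 0.05), with a median of -0.08. The share called was 28%, against 2.55% of all genes. Beside Axin2, Lef1 and Nkd1 the called genes were Bmp4, Tnfrsf19, Sp5 and Jag1. Bmp4, a ligand of the BMP family, read 8.87, 9.75 and 9.29 against 4.72, 5.05 and 4.72 (22.1-fold as summarised). Tnfrsf19, the TNF receptor Troy, read 6.68, 7.45 and 6.65 against 4.53, 4.47 and 4.60 (5.25-fold as summarised). Both were within the range of unexpressed genes in wild type and above it in each mutant array. On the other Tnfrsf19 probe sets the differences were -0.01 and 0.09. Sp5, a repressor that follows Wnt activity in embryos, differed by 1.27 (2.42-fold, adjusted p = 0.0189), but array 3 was at 6.53 against 7.78 and 7.57, and the call ended without any 1 of the other 5 arrays (0.0658 to 0.0899). Jag1, a Notch ligand, lost its 1.72-fold call in 5 of the 6 fits with 1 array left out (0.0588 to 0.135), all but that without 15lox/15lox array 1, and with sex type (0.188). The intestinal targets Lgr5, Ascl2, Sox9, Ephb3 and Cd44 were not called, nor were the growth genes Ccnd1 (difference -0.21, adjusted p = 0.708) and Myc (-0.24, adjusted p = 0.9). Myc read 11.77, 11.27 and 9.95 in 15lox/15lox and 11.51, 11.60 and 10.59 in wild type, a spread wider than the difference.

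The start sites of these genes were read for the words that Lef/Tcf proteins favour, CTTTGAT and CTTTGAA, on both strands, from 250 bases before to 50 bases after each start. Of 18110 such windows of tested genes in RefSeq (build GRCm38.p6), 6.86% held one; the share was 6.23% of 337 windows of higher genes and 5.84% of 137 windows of lower genes. The windows of Axin2, Nkd1, Lef1, Dkk2, Wif1, Bmp4, Rnf43 and Sult1a1 did not hold these letters. Windows were looked at singly for the called feedback inhibitors and for Lef1, Sp5, Bmp4, Tnfrsf19, Edar and Sult1a1. Other called Wnt genes, such as Jag1, Wnt11 and Bcl9l, were not looked at singly. Apcdd1, Znrf3 and Notum are not among the windows listed. Shown are the 4 windows of that set that held a word, with the word in capitals, because they are the stretches nearest the start in which a reader can see it. They are Edar at chr10:58675647-58675946 (minus strand, word starting at -233), Sp5 at chr2:70474673-70474972 (plus strand, -104), Tnfrsf19 at chr14:61037938-61038237 (minus strand, the second of its start sites, reverse word at -202) and Dkk1 at chr19:30549447-30549746 (minus strand, -117).
Edar: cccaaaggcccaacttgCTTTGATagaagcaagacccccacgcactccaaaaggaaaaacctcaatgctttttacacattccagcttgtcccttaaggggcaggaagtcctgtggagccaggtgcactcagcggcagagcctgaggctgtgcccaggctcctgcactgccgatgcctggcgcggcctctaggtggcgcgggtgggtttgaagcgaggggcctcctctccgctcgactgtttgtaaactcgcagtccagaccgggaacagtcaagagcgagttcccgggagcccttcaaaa
Sp5: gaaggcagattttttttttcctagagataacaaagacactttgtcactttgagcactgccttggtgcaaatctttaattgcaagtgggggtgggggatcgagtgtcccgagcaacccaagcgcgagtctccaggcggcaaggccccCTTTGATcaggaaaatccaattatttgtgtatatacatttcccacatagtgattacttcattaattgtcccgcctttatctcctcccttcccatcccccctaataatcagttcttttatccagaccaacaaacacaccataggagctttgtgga
Tnfrsf19: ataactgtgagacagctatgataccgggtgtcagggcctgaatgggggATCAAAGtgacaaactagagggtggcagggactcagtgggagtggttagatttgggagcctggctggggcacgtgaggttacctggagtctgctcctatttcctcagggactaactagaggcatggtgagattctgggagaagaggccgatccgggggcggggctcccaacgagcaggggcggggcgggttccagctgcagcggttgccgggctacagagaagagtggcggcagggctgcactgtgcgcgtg
Dkk1: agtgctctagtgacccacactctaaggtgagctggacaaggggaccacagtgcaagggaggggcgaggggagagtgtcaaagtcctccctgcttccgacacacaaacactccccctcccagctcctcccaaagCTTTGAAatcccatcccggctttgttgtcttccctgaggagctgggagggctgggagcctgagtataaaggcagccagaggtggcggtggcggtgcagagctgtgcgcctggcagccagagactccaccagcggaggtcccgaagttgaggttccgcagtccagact
A match describes letters and shows no binding.

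**Figure D3:**
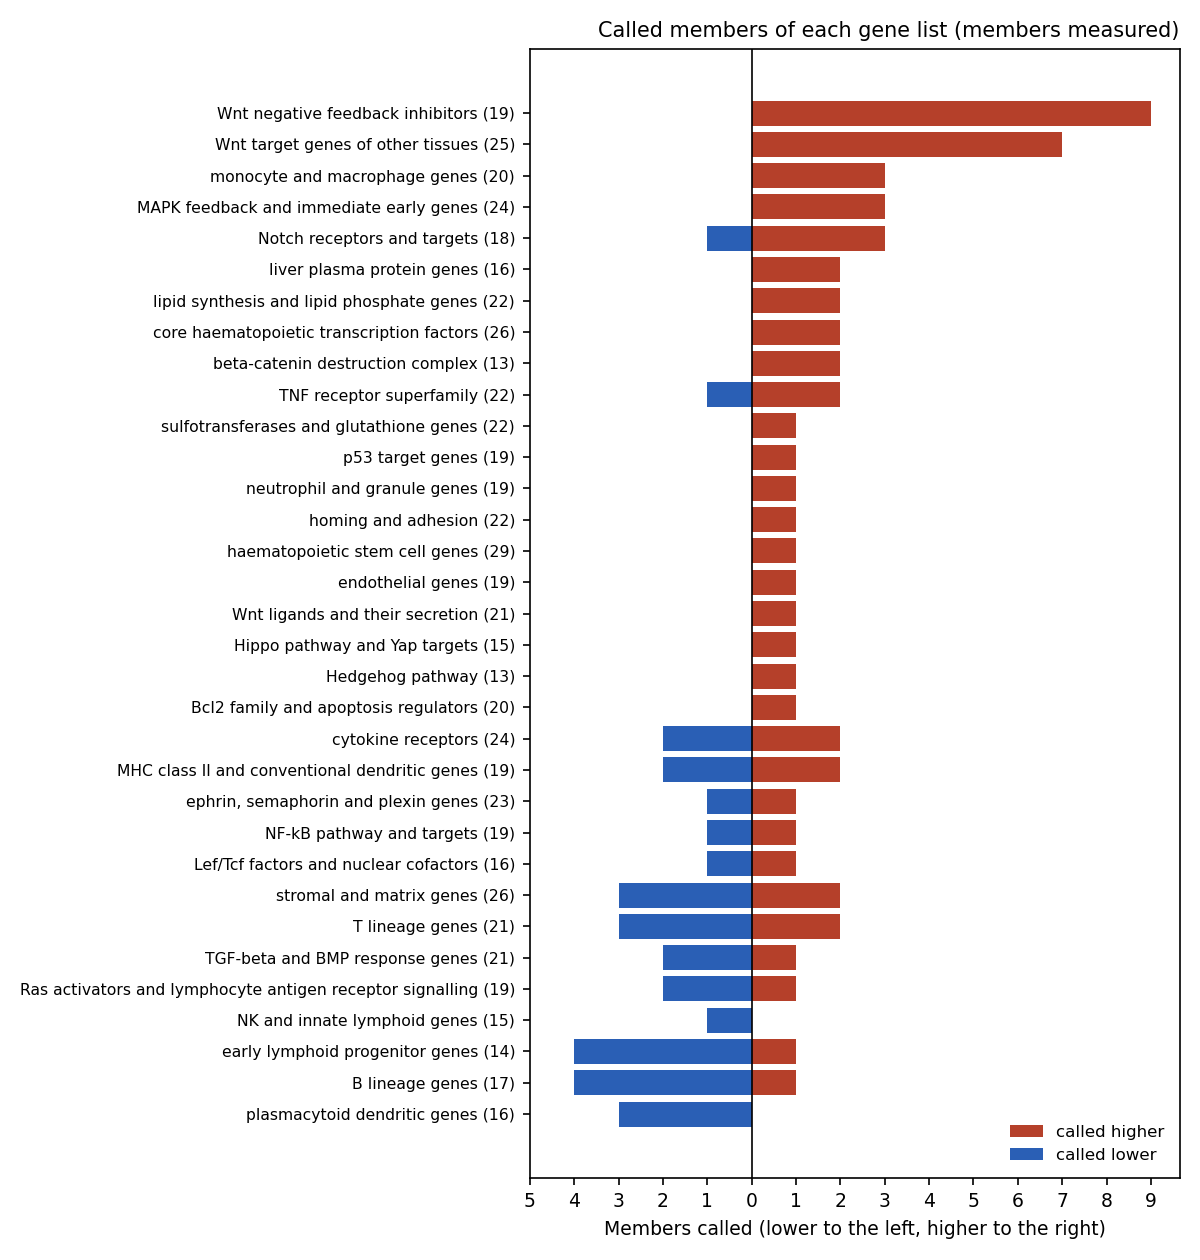
Bars count the members of each gene list called lower (left, blue) or higher (right, red) in 15lox/15lox; the number of members measured is in brackets, and the 33 of 53 lists with a called member are drawn. The feedback inhibitors (9 of 19) and the targets of other tissues (7 of 25) have the most, and the plasmacytoid, B lineage and early lymphoid lists lean to lower. Lists share called genes: Axin2 and Nkd1 are in both of the first pair, and Ccr9, Ly6d and Ighm recur among the last lists. With sex type as a covariate the B lineage list has 1 called higher and 0 lower.

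In other signalling pathways the lists held few called genes, at shares of 6.67% to 22.2% against 2.55% of all genes. By limma at an unadjusted p under 0.05 were 11 of 21 TGF-beta and BMP genes (4 higher and 7 lower) and 9 of 23 ephrin, semaphorin and plexin genes (4 and 5). The counts were 8 of 22 TNF receptors (3 and 5), 6 of 15 Hippo genes (4 and 2), 5 of 24 MAPK genes (3 and 2) and 5 of 18 Notch genes (3 and 2). They were 3 of 13 Hedgehog (1 and 2) and 2 of 19 NF-kB genes (1 and 1), against 2206 of all 18194 genes. Of 24 MAPK feedback and immediate early genes 3 were called higher, Phlda1, Etv5 and Dusp4. Etv5, an ETS factor, read 12.06, 12.05 and 11.74 against 10.59, 10.59 and 10.54 (2.60-fold, limma adjusted p = 0.00264). Dusp4, a phosphatase of MAP kinases, lost its 2.36-fold call without wild-type array 4 or 6 or 15lox/15lox array 1 or 2 (adjusted p 0.0512 to 0.0615) and with sex type (0.0768). In the TGF-beta and BMP list (21 genes) Bmp4 rose, Bmper fell, and Pmepa1 was called 1.84-fold lower, a call that ended without any 1 array but 15lox/15lox array 3 (0.0764 to 0.118), and with sex type (0.148). Of 18 Notch genes, Dtx1, a Notch-induced ubiquitin ligase, was 2.40-fold lower in each mutant array (6.55 to 6.66 against 7.53 to 8.22), with its call lost without 15lox/15lox array 3 combined with sex type (adjusted p = 0.0748). Hey2, Jag1 and Gata3 were called higher, with calls that ended in 5, 5 and 6 of the 6 fits with 1 array left out (0.0588 to 0.167; Hey2 kept its call without 15lox/15lox array 3), and Gata3 and Jag1 were not called with sex type (0.223 and 0.188). Nrp2, a co-receptor for semaphorins and VEGF, was the one clear increase of 23 ephrin, semaphorin and plexin genes, at 10.88, 10.41 and 10.86 against 6.21, 6.8 and 6.74 (17.6-fold).

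Ptch1 and Ajuba were the single called members of the Hedgehog (13) and Hippo (15) lists. Ptch1, the Hedgehog receptor, was 1.33-fold higher and Ajuba, a LIM-domain protein, 1.72-fold. Both calls ended with 1 array left out (adjusted p 0.0607 to 0.103 in 5 fits for Ptch1, those without wild-type array 4 or 5 or any 15lox/15lox array; 0.0546 to 0.0635 in 3 fits for Ajuba, those without wild-type array 5 or 6 or 15lox/15lox array 2), and with sex type (0.121 and 0.0837). In the NF-kB list (19) Cd83 was higher and Traf1, an adaptor of TNF receptors, 2.12-fold lower, with its call lost in every such fit but that without 15lox/15lox array 3 (0.116 to 0.196) and with sex type (0.206). Of 22 TNF receptors, Edar and Tnfrsf19 rose and Tnfrsf25, the death receptor DR3, fell 1.86-fold.

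Lymphoid genes moved in both directions. Il7r, the interleukin-7 receptor chain needed for lymphoid development, rose in 15lox/15lox to 12.50, 11.89 and 12.64 from 7.49, 7.84 and 9.37 (17.2-fold, log2 4.11, SE 0.50, limma adjusted p = 0.000606). Pdcd1, the inhibitory receptor PD-1, rose to 11.21, 10.35 and 10.98 from 6.40, 6.49 and 6.92 (18.9-fold). For both genes even the lowest mutant array was above the highest wild-type array by more than 2 on the log2 scale. Pou2af1, a coactivator of B cells, was 4.41-fold higher, at 6.10 to 6.71 against 4.15 to 4.45, with its call lost without 15lox/15lox array 3 combined with sex type (adjusted p = 0.0536).

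Against these stood genes of early lymphoid, T, NK and B cells. The share called, in either direction, was 35.7% of early lymphoid and 23.8% of T lineage genes. It was 6.67% of NK and innate lymphoid and 29.4% of B lineage genes, against 2.55% of all genes. Of 14 early lymphoid genes 4 were called lower (Ccr9, Lax1, Ly6d, Ighm) and 1 higher (Il7r), with a median of -0.25. Of 21 T lineage genes 3 were lower (Cd3g, Lat, Cd7) and 2 higher (Pdcd1, Gata3). Cd3g, a chain of the T cell receptor complex, was low in all arrays but lower in 15lox/15lox (4.69 to 4.88 against 5.79 to 6.28, 2.42-fold). Lat, an adaptor of that receptor, was 1.83-fold lower at 9.82 to 10.19 against 10.79 to 11.07. Il2rb, a receptor chain for interleukins 2 and 15, was the called member of the 15 NK and innate lymphoid genes, 3.20-fold lower at 5.07 to 5.45 against 6.68 to 7.32, and Il21r, the interleukin-21 receptor, was 1.76-fold lower. Il21r and Lax1 lost their calls without 15lox/15lox array 3 combined with sex type (adjusted p = 0.0598 and 0.0563).

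Of 17 B lineage genes 4 were called lower (Ebf1, Blk, Ighm, Igha) and 1 higher (Pou2af1), and 16 of the 17 differences were below 0. Ebf1, the factor that commits cells to the B lineage, read 4.89, 5.15 and 4.94 in 15lox/15lox and 6.36, 6.82 and 7.30 in wild type (3.55-fold lower as summarised). Blk, a kinase of B cells, read 5.15, 5.44 and 5.12 against 6.31, 6.85 and 7.32 (3.01-fold lower as summarised). Mutant values of both lay within the range of unexpressed genes. With sex type as a covariate neither was called (adjusted p = 0.123 for Ebf1 and 0.0684 for Blk), and Ebf1 also lost its call in 5 of the 6 fits with 1 array left out (0.0531 to 0.0866), all but that without wild-type array 4. Gata3, a factor of T and innate lymphoid cells, was 2.32-fold higher and Ighm, the IgM heavy chain, 1.62-fold lower, with calls lost in 6 and 5 such fits (0.0622 to 0.19; Ighm kept its call without 15lox/15lox array 1), and with sex type (0.223 and 0.19). Defining markers Cd79a and Pax5 of B cells and Cd3e and Cd3d of T cells were at 4.86 to 5.83 on all 6 arrays, and Cd79b at 10.69 to 11.57; none of these was called. The mean of the 4 B lineage markers was 6.58 to 6.79 in 15lox/15lox and 7.18 to 7.42 in wild type, and that of the 3 T lineage markers 4.83 to 5.03 and 5.43 to 5.64. Each mean includes 1 called gene with the largest difference, Ebf1 (-1.83) and Cd3g (-1.28). The other B markers differed by -0.05 to -0.41 and the other T markers by -0.14 and -0.33. The part of cell composition in the lymphoid differences was not tested.

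**Figure D4:**
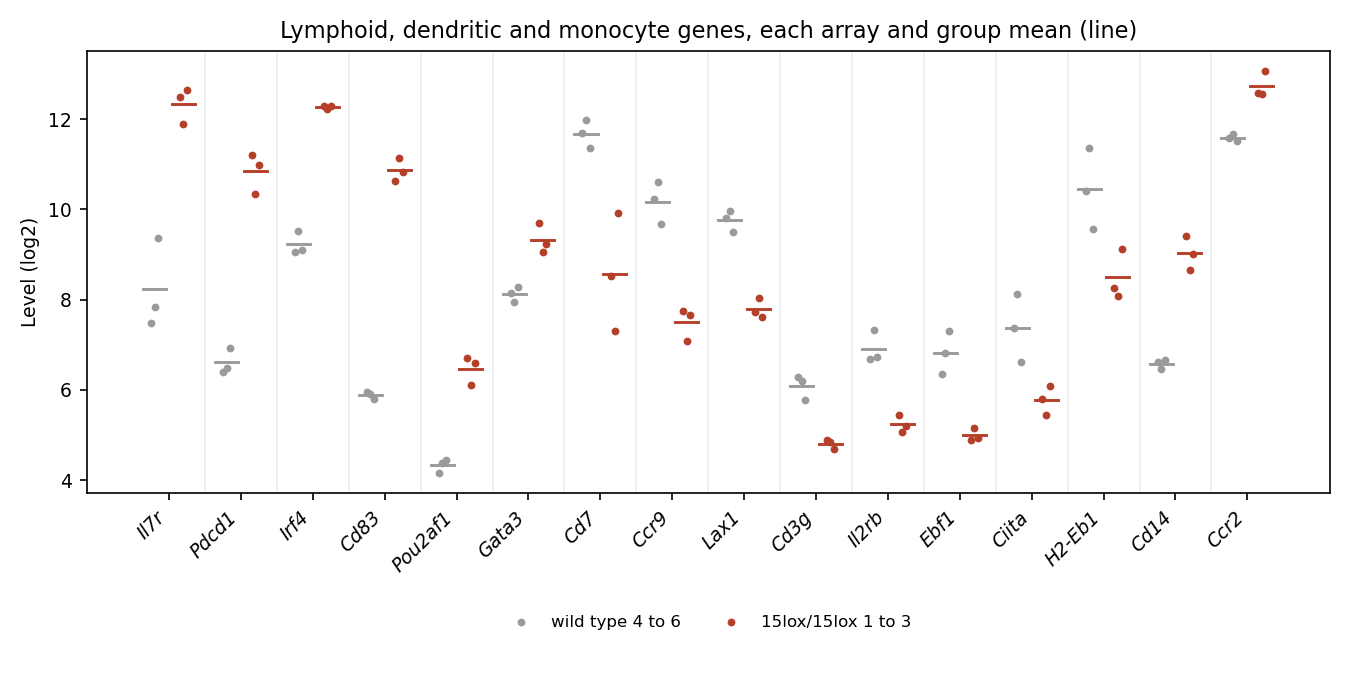
Log2 levels of 16 lymphoid, dendritic and monocyte genes on each wild-type array (4 to 6, grey) and each 15lox/15lox array (1 to 3, red); lines are group means of 3 arrays. Il7r to Gata3, Cd14 and Ccr2 are higher in the mutant arrays, Cd7 to H2-Eb1 are lower, and H2-Eb1 differs among wild-type arrays from 9.56 to 11.37.

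Dendritic genes leaned lower while 2 of their regulators and markers rose. The share called, in either direction, was 18.8% of the plasmacytoid and 21.1% of the conventional list, against 2.55% of all genes. All 16 plasmacytoid dendritic genes had a difference at or below 0, with a median of -0.56, and 3 were called, Ccr9, Pacsin1 (2.31-fold lower) and Ly6d. Of 19 genes of MHC class II and conventional dendritic cells, 16 were below 0, Ciita and H2-Eb1 were called lower and Irf4 and Cd83 higher. Irf4, a factor of dendritic cells and lymphocytes, read 12.30, 12.23 and 12.29 in 15lox/15lox and 9.06, 9.52 and 9.11 in wild type (8.24-fold). Ciita, the coactivator that MHC class II genes require, read 5.81, 5.45 and 6.08 against 7.36, 8.12 and 6.62 (3.00-fold lower); leaving out wild-type array 4 or 15lox/15lox array 2 ended the call (adjusted p 0.0555 and 0.0642), as did sex type (0.0723). Cd74, the invariant chain, read 8.85, 8.83 and 10.45 against 11.92, 12.89 and 10.69 and was not called (limma adjusted p = 0.104), nor was Spib (7.63, 8.07 and 9.20 against 10.11, 11.26 and 9.50, 0.131). In both, wild-type array 5 was highest and 15lox/15lox array 3 came nearest to wild type. The part of cell composition in these differences was not tested; the mean of the 5 conventional dendritic markers was 8.93 to 9.82 in 15lox/15lox and 9.91 to 10.93 in wild type, with Zbtb46 at 6.26 to 6.71 on all 6 arrays.

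The monocyte genes Cd14, Ccr2 and F13a1 rose and the rest of that list did not move as one. Cd14, the lipopolysaccharide co-receptor, read 9.41, 8.66 and 9.02 in 15lox/15lox and 6.62, 6.45 and 6.67 in wild type (5.46-fold, limma adjusted p = 1.85e-05). Ccr2, a chemokine receptor of monocytes, read 12.59, 12.55 and 13.07 against 11.59, 11.66 and 11.52 (2.21-fold). F13a1, clotting factor XIII, read 12.26, 12.20 and 13.04 against 11.08, 10.44 and 11.09 (3.10-fold), with its call lost without 15lox/15lox array 3 combined with sex type (adjusted p = 0.0626). All 3 were above wild type on each mutant array. The median over the 20 monocyte and macrophage genes was -0.01, and Csf1r, the receptor that defines the lineage, was at 10.98 to 12.89 against 11.62 to 12.55. The mean of the 4 monocyte markers was 11.1 to 12 in 15lox/15lox and 10.16 to 10.46 in wild type. These markers are Cd14, Ccr2, F13a1 and Csf1r, so the mean restates the 3 called genes, while Csf1r differed by -0.35 and was not called. The part of cell composition was not tested. Of 19 neutrophil and granule genes, Anxa1 was the called member, and the granule genes Mpo and Elane were not called. The share called was 15% of the monocyte and 5.26% of the neutrophil list, against 2.55% of all genes.

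Of 29 stem cell genes Tek, the angiopoietin receptor, was called, at 9.76, 10.89 and 9.93 in 15lox/15lox against 8.07, 7.57 and 8.26 (4.68-fold, limma adjusted p = 0.000611), and it was also the called member of 19 endothelial genes; Cdh5 and Kdr, which define endothelium, stayed at 4.62 to 5.61, and Pecam1 was not called. Of 20 Hox, Meis and Pbx genes 0 were called by limma and 0 had an unadjusted p under 0.05; their median difference was -0.01. Among 26 core transcription factors Gata3 and Tcf12 were called, and among 22 homing genes Cd93. The share called was 3.45% of stem cell, 5.26% of endothelial, 7.69% of core factor and 4.55% of homing genes, against 2.55% of all genes. So few calls say little about these lists as a whole. Tcf12 (1.36-fold) and Cd93 (1.34-fold) lost their calls with sex type (adjusted p = 0.19 and 0.115) and in 5 and 4 of the fits with 1 array left out (0.0606 to 0.134; Tcf12 kept its call without 15lox/15lox array 2, Cd93 without that array or wild-type array 6). Of 26 stromal and matrix genes 5 were called (19.2%, against 2.55% of all genes). Fn1, fibronectin, was 2.62-fold higher and Lamc1, a laminin chain, 2.46-fold. Sparc, Sdc1 and Sdc4 were called lower, and none of these 3 remained called with sex type; Sdc1, a syndecan, lost its 2.53-fold call also without wild-type array 4 or 6 or 15lox/15lox array 1 or 2 (0.063 to 0.101). Lists of mast cell, eosinophil, megakaryocyte, erythroid and haem genes, 76 genes in all, held 0 calls by limma and 9 genes with an unadjusted p under 0.05 (2 higher and 7 lower). Over all 18194 genes 2206 had such a p.

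Of 56 genes of DNA replication, mitosis, D cyclins and CDK inhibitors, 0 were called by limma and 3 had an unadjusted p under 0.05; the median size of the difference was 0.08, against 0.11 for all genes. Of 39 genes of ribosomes and their assembly, 0 were called and 0 had an unadjusted p under 0.05, with a median size of 0.03. Of 76 genes of glycolysis, the citrate cycle, oxidative phosphorylation and cholesterol synthesis, 0 were called and 2 had an unadjusted p under 0.05, with a median size of 0.045. Ribosomal protein genes averaged 13.94 to 14.05 on the 6 arrays and oxidative phosphorylation genes 13.13 to 13.23, which are high levels. Called higher genes of the highest level band also differed least, so sizes in such lists are no like comparison with all genes. Heat shock, interferon and Polycomb lists (64 genes) held 0 calls and 4 genes with an unadjusted p under 0.05. Their median size was 0.14, and that of the 21 interferon genes alone 0.26, above the 0.11 of all genes. The gene of lowest p in the mitosis list was Kif23, at 11.71, 11.53 and 11.43 against 11.92, 12.30 and 11.75 (difference -0.43, adjusted p = 0.224), and in the glycolysis list Ldhb, at 10.84, 11.27 and 11.89 against 10.02, 10.28 and 10.41 (1.10, adjusted p = 0.159). In lipid genes Plpp1 and its relative Plpp3 (3.59-fold, 6.66 to 7.55 against 4.97 to 5.42) were the 2 called of 22, in the plasma protein list Ahsg and Fetub (7.77-fold) of 16, and in the sulfotransferase and glutathione list Sult1a1 of 22. These were 9.09%, 12.5% and 4.55% of the lists, against 2.55% of all genes. Because the lists were chosen with earlier results known, these shares test nothing. Pmaip1, the death effector Noxa, was the called member of both the p53 list (19 genes, 5.26% called) and the Bcl2 family list (20 genes, 5% called), 1.63-fold higher, with the call lost with sex type (adjusted p = 0.129) and without wild-type array 5 or 6 or 15lox/15lox array 1 or 2 (0.0539 to 0.111). The test was also run on simulated data of this design, with changed genes drawn from all tested genes. It found 28% of changes of 1.5-fold, 86% of 2-fold and 100% of 4-fold, and it called 8 unchanged genes. The simulated noise was drawn independently for each gene and array, without sex type or changes in the other genotypes. That setting is simpler than the data, so these shares do not give the power in the data. The power in any single list was not tested. The largest measured difference in size was 0.065 for ribosomal protein, 0.24 for ribosome biogenesis and 0.24 for oxidative phosphorylation genes. It was 0.15 for citrate cycle and 0.23 for cholesterol genes, but 0.48 for DNA replication, 0.54 for D cyclin and CDK inhibitor and 1.10 for glycolysis genes.

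The level reached with both Apc alleles floxed was compared with that of the hypomorphic genotypes, which share their fit and floxed allele with it. Against 15lox/1638N, 76 genes were called (0.418%), 71 of them higher in 15lox/15lox. Against 15lox/1572T, 297 were called (1.63%), 278 higher. The first count was sensitive to single arrays: it was 28 without 15lox/1638N array 1, 30 without array 2 and 169 without array 3, and between 43 and 46 without any 1 of the 15lox/15lox arrays. Among the feedback inhibitors, Nkd1 read 7.13, 7.30 and 7.92 in 15lox/1638N and was 1.41 (log2) higher in 15lox/15lox (SE 0.17, limma adjusted p = 0.00498). Wif1 was 1.61 higher (adjusted p = 0.00324) and Dkk2 1.22 higher (adjusted p = 0.0114). Axin2 read 11.17, 11.10 and 11.51 in 15lox/1638N; the difference of 0.91 (SE 0.31) was not called (adjusted p = 0.393), and for Lef1 it was 0.02 (SE 0.41, adjusted p = 0.987).

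Among the largest increases, Edar, Ahsg, Phlda1 and Cd83 were 2.05, 2.61, 2.23 and 1.94 higher in 15lox/15lox than in 15lox/1638N, and all 4 passed the test (limma adjusted p from 0.00782 to 0.0184). For Sult1a1, Rasgrp1 and Plpp1 the differences of 1.31 (SE 0.40), 1.31 (SE 0.43) and 1.11 (SE 0.31) did not pass it (0.264 to 0.362). Cpb1 read 4.33, 4.63 and 4.57 in 15lox/1638N and 4.14, 4.24 and 4.36 in 15lox/1572T, near its wild-type level, and was 1.15 and 1.41 higher in 15lox/15lox (adjusted p = 0.00111 and 3.13e-05). The levels outside 15lox/15lox were within the range of unexpressed genes, and the 15lox/15lox mean of 5.66 was barely above its limit of 5.61. Such differences of Cpb1 are of summarised values that are not resolved. Fasl, the death ligand, and Tfcp2l1, a factor known from pluripotent cells, were 2.48 and 2.61 higher than in 15lox/1638N. Cd14 went the other way: at 10.37, 10.11 and 9.95 in 15lox/1638N, it was 1.11 lower in 15lox/15lox (SE 0.18, adjusted p = 0.0221). For the lowered genes Cracdl and Bmper, 15lox/15lox differed from 15lox/1638N by 0.27 (SE 0.29) and 0.29 (SE 0.23), and from 15lox/1572T by -0.52 (SE 0.29) and -0.11 (SE 0.23); none of these differences was called. Differences between genes in how far they separate the genotypes were not tested.

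**Figure D5:**
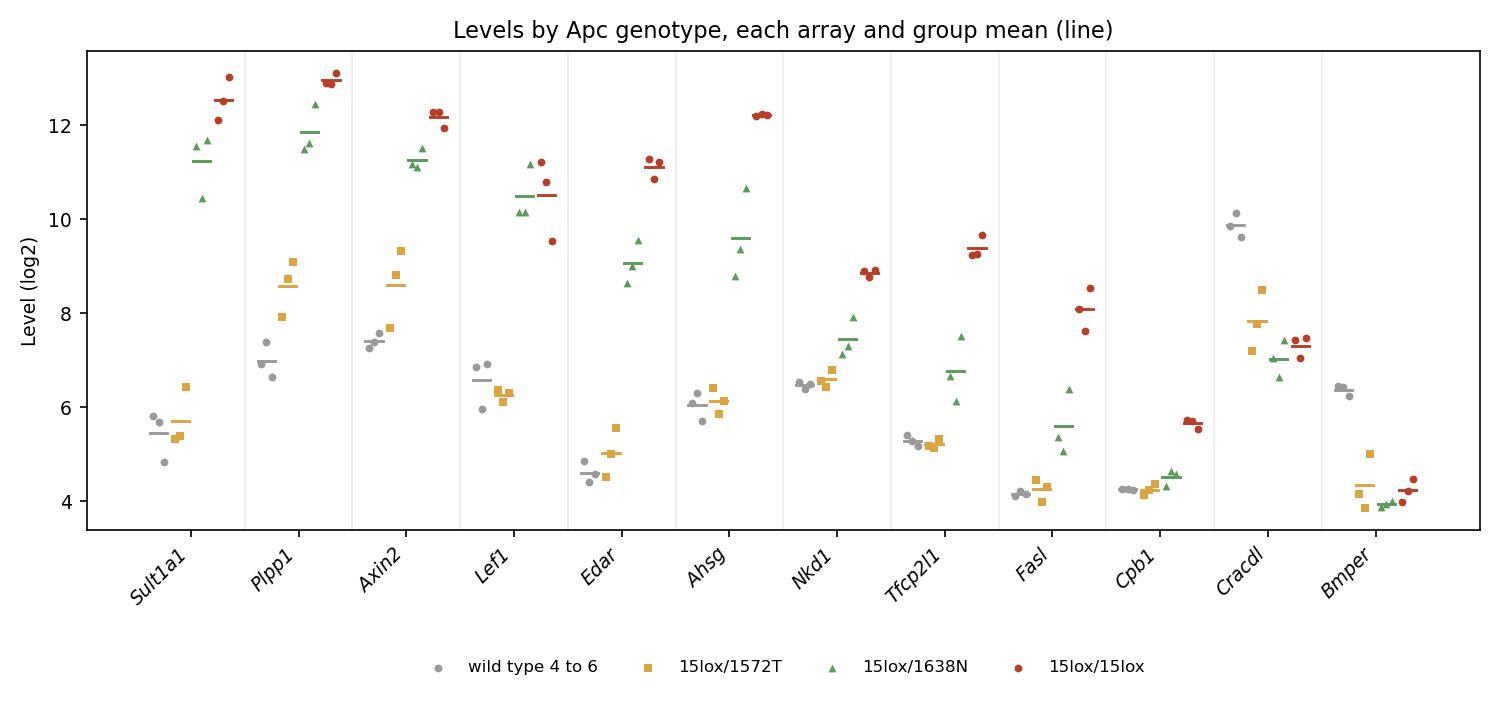
Log2 levels of 12 genes on each array of wild type 4 to 6 (grey circles), 15lox/1572T (yellow squares), 15lox/1638N (green triangles) and 15lox/15lox (red circles); lines are means of 3 arrays. Sult1a1, Plpp1, Axin2 and Lef1 are high in both 15lox/1638N and 15lox/15lox, Nkd1, Tfcp2l1, Fasl and Cpb1 are highest in 15lox/15lox, and Cracdl and Bmper are low in all 3 mutant genotypes. Cpb1 is within or near the range of unexpressed genes in every genotype.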

How the data were processed

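Expression was measured on 15 arrays, 1 per sample. The deposited table of the series has no missing values; the unit is log2, read from the values, since no header names it, and per the submitters' processing notes the authors used RMA (version not given) and the build mm9, whose role is not given. For settings and quality filters the sources used here give nothing. No scanner files were used here.

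Probe sets with 1 symbol in the platform annotation were kept (34958; 932 had several and 9211 none), and for each gene the brightest set on average over the 15 arrays represented it. This gave 18194 genes, all tested whatever their level, with the values as deposited. A linear model with moderated variances (limma 3.58.1, R 4.3.3; no trend, not robust) was fitted on 12 arrays, 4 genotypes of 3, with 8 residual degrees of freedom; wild-type arrays 1 to 3 were left out, since 18.2% of their probe sets hold 3 equal values against 0.0177% in arrays 4 to 6, and they look shifted onto the mean of arrays 4 to 6, so that agreement with them is no independent check. Tests were two-sided with Benjamini-Hochberg adjustment over all genes. Each array was assigned a sex type by its levels of Xist and of 3 Y-linked genes. The numbers of wild-type arrays 4 to 6 match no mutant array, so no pairing exists in the main comparison. The number of arrays limits the precision.

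Members, lists and tests were chosen with earlier results of these data known. There were 53 gene lists and 9 more written after values were seen (1003 list genes written in the 53, 931 measured). Named were, among called genes whose groups did not overlap, the 10 highest and 10 lowest differences, then the 10 of lowest p in each direction with a log2 size from 1 to 2 and under 1, passing over placeholder symbols and sex-linked genes; also Axin2, Lef1, Tcf7, Nkd1, Ctnnb1, Ccnd1, Myc and Apc, and from each list up to 6 called members of lowest p, or else the member of lowest p. Other genes named, such as Cd74, Spib, Wnt9a, Dkk1, Notum, Rnf43 and markers of cell types, were chosen after their values were seen. The fit was tested on simulated data with 200 changed genes. Alternatives tried were other control arrays, sex type or a replicate block in the model, other probe set rules, a level filter, quantile normalization, trend, array weights and leaving out each array. Other thresholds were tried for the counts of genes only. Promoter windows came from RefSeq.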

Additional observations from a re-analysis of the deposited data

Results flagged for a closer look

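Probe sets without a gene symbol lie outside the counts by gene. Of 9211 such probe sets, 58 were called over all probe sets, 46 higher and 12 lower in 15lox/15lox, and the 3 with the largest differences, all above their level in wild type, are given by their identifiers because no table used here names their gene. Probe set 1436230_at read 11.81, 11.56 and 12 against 7.04, 7.35 and 6.85 (log2 difference 4.711, limma adjusted p = 1.42e-05). Probe set 1442350_at read 9.52, 9.82 and 10.17 against 5.04, 5.08 and 5.52 (4.626, adjusted p = 1.76e-06). Probe set 1433471_at read 12.65, 12.34 and 11.97 against 8.57, 8.49 and 8.65 (3.749, adjusted p = 9.94e-05). In each, the lowest mutant array was above the highest wild-type array by more than 3.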

How the results depend on the processing

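Against 464 called genes, the count was 1199 with all 6 wild-type arrays as control (44.5% higher, against 70.5%), 824 with array weights (54.2% higher), 260 with sex type as a covariate (82.7% higher), 287 without 15lox/15lox array 3 and with sex type (a setting chosen after seeing the data), 237 with genes under the median level left out (9097 genes tested), 253 at an adjusted p under 0.01 and 155 against a log2 difference of 0.5; it was 291 to 459 with 1 array left out. With quantile normalization, trend, the mean of probe sets, 6 arrays in the fit or wild type 1 to 3 as control it was 391 to 489. Against 15lox/1638N (76), the count was 7 without genes under the median level, 172 with array weights and 28 to 169 with 1 array left out; against 15lox/1572T (297) it was 123 without genes under the median level. The sign turned for Apc with the mean of its probe sets (-2.125). Of 134 named and called genes, 83 stayed past the threshold in every alternative and 102 with sex type. Wild type 4 to 6 and 15lox/15lox share no replicate numbers. With a replicate block the counts were 475 for wild type 1 to 3 as control, 39 against 15lox/1638N and 233 against 15lox/1572T; same-numbered 15lox/15lox and 15lox/1638N arrays deviated together with correlations of -0.13, 0.333 and 0.43, so the numbers were not taken as pairs. Causes of these shifts were not tested.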

Other observations

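Some gene groups were recognised after the values were seen, so their counts describe these arrays and test nothing. Of 13 co-inhibitory receptors and ligands, 6 were called higher in 15lox/15lox and 0 lower by limma (6 higher and 2 lower at an unadjusted p under 0.05). Cd160, an inhibitory receptor of lymphocytes, read 10.51, 10.48 and 10.71 against 6.63, 6.30 and 5.81 (20-fold, adjusted p = 9.81e-06), and Btla, which shares its ligand, read 11.02, 10.93 and 11.21 against 7.45, 7.77 and 7.72 (10.6-fold). With Pdcd1 these form a set of 3 receptors in which each mutant array was more than 2 above wild type. Pvr, a ligand of such receptors, was 3.27-fold higher. Cd200 (2.28-fold) and its receptor Cd200r1 (3.06-fold) were called too, but Cd200 lost its call without wild-type array 5 or 15lox/15lox array 1 (adjusted p 0.0562 and 0.0685) and Cd200r1 without any 1 array but 15lox/15lox array 3 (0.0563 to 0.117) and with sex type (0.145). Among 21 cytokine and death ligand genes, Fasl read 8.09, 7.62 and 8.54 against 4.11, 4.22 and 4.14 (15.2-fold), Il18 was 8.30-fold higher and Xcl1, lymphotactin, 2.62-fold lower. Csf2 and Il10 were called higher, and with sex type as a covariate they were not (adjusted p = 0.0558 and 0.121); Csf2 lost its call without wild-type array 6 (0.0559), and Il10 without any 1 array but 15lox/15lox array 2 (0.0902 to 0.11).

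Smaller groups included the ectodysplasin receptor pathway, in which Edar, its adaptor Edaradd (8.67, 8.44 and 8.43 against 6.32, 6.14 and 6.28, 4.81-fold) and the related Tnfrsf19 were higher, 3 of 8 genes. Of 9 genes in a list of adenosine and nucleoside enzymes 4 were higher: Nt5e, the CD73 enzyme that makes adenosine (9.53, 8.89 and 9.31 against 6.995, 6.30 and 6.53, 6.22-fold), Ada, which removes it, Dpp4, a surface peptidase (1.87-fold), and Upp1, uridine phosphorylase (8.12-fold, not called with sex type, adjusted p = 0.0581). Of 8 beta tubulins, Tubb3, the neuronal form, was at 10.41, 9.74 and 9.52 against 5.71, 5.68 and 5.63 (18.6-fold) and Tubb2b was 6.68-fold higher. Of 19 mesendoderm and pluripotency factors, Tfcp2l1 (17.1-fold), Mixl1 (9.02-fold), Klf5 (5.18-fold) and Tbx4 (3.02-fold) were higher. On the other Tfcp2l1 probe sets the differences were -0.14 and -0.003. Klf2 was 2.92-fold lower; its call ended without 15lox/15lox array 2 (adjusted p = 0.0539) and with sex type (0.0655). Of 24 heparan sulphate genes, Gpc4, a glypican, was 4.51-fold and Extl3, which starts the chains, 2.59-fold higher, while the syndecans Sdc1 and Sdc4 were called lower.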
